A study of Mus musculus with 2 samples.

Results

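The cytosolic ribosomal proteins are the proteins of the large (60S) and small (40S) subunits of the ribosome that translates nuclear-encoded mRNAs. Their genes were compared between unfertilised oocytes of Mul1 knockout mice (MUL1 -/-) and of wild-type mice (MUL1 +/+), both of the C57BL/6 strain. Mul1 encodes a ubiquitin ligase of the outer mitochondrial membrane. Each genotype was read on 1 Agilent mouse expression array of a single colour, with Cy3-labelled RNA amplified from pools of 123 knockout oocytes and 213 wild-type oocytes. Members were all probes whose gene name starts with Rpl or Rps followed by a digit, without the Rps6k kinases and names marked as pseudogenes, together with Rpsa, Rplp0, Rplp1 and Rplp2. This gave 87 genes with 186 probes, among 37074 gene names on the array. Of these, 84 genes were well above background on both arrays (180 probes), among 22921 such genes in all. They comprised 45 of the 46 large subunit genes on the array, all 31 small subunit genes, 6 of 8 paralogs, and the name matches Rpl37rt and Rps19bp1. Rps19bp1 encodes a protein that binds RPS19 and is not a subunit of the ribosome.

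Ribosomal protein mRNAs are among the most abundant mRNAs of growing cells, and most of their products are needed in equal numbers. Most of them start with a cytosine followed by a run of pyrimidines, the 5′ terminal oligopyrimidine (TOP) motif, through which mTOR and LARP1 control their translation and stability. The oocyte builds up its ribosomes during growth, and the full-grown oocyte relies on stored mRNAs.

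The bases at the annotated transcription start show this motif and are given because it is the feature that most ribosomal protein mRNAs are known to share. The RefSeq promoter table (GRCm38.p6) held a start for 66 of the 87 genes. Of these, 13 (19.7%) began exactly at the annotated base with a C followed by further C or T to a run of at least 5 bases, read on the gene's own strand, against 3.01% of 27025 genes of the table. The run was 13 bases long at Rpl15, the longest among the members, 11 at Rpl35, 10 at Rps10, 9 at Rps6 and at Rps18, 8 at Rpl35a and 5 at Rplp2. Each line below gives 15 bases before and 15 bases from the annotated start, with the pyrimidine run in capitals. The windows are chr14:18270972-18271001 (minus strand) for Rpl15, chr2:39005117-39005146 (minus) for Rpl35, chr17:27635230-27635259 (minus) for Rps10, chr4:86857353-86857382 (minus) for Rps6, chr16:33056467-33056496 (plus) for Rpl35a and chr7:141447636-141447665 (plus) for Rplp2. Rpl39l, at chr16:10170213-10170242 (plus), is shown as a paralog whose annotated start does not begin with such a run.
Rpl15: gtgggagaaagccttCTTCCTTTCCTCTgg
Rpl35: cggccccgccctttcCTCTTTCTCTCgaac
Rps10: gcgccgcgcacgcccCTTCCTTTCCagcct
Rps6: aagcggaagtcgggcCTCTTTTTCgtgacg
Rpl35a: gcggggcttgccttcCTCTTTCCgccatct
Rplp2: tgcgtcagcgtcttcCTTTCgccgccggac
Rpl39l: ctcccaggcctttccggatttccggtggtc
An annotated start can lie some bases from the start used in oocytes, so a window without a run at that exact base says nothing about the mRNA.

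All differences are log2 values, knockout minus wild type, after each array was set relative to its own 75th percentile. That percentile lay at a signal of 790 on the knockout array and 808 on the wild-type array. Signals are the scanner's processed intensities before this scaling, and for a gene with several probes the geometric mean of its probes. With 1 array per genotype there is no spread between replicates and no test is possible, so differences are described by their size. No spot was saturated. The probe for the main Mul1 transcript read 1074 in knockout oocytes and 3353 in wild-type oocytes, a difference of -1.61. A second Mul1 probe, listed under another transcript, read 23.1 in knockout and 19.3 in wild-type oocytes. The labels do not say which part of Mul1 was deleted.

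The ribosomal protein genes as a group were nearly equal on both arrays. Their median difference was 0.00 and their mean -0.0013, with an SD of 0.11 between genes, and the median of all genes measured was 0.03 with an SD of 0.44. Of the 84 genes, 45 lay above 0 and 39 below, which is 53.6% above 0, near the 54.8% of all genes measured. With values this close to 0 the split turned with the scaling: 39 lay above 0 under median scaling, 37 under loess, 36 under normexp background correction and 80 under spike-in scaling. Only 1 member was at least 1.2-fold higher in knockout oocytes (Rps4l), against 21.1% of all genes. Only 2 members were at least 1.2-fold lower (Rpl39l and Rps27a), against 16.6% of all genes. None was 1.5-fold apart in either direction, against 13% of all genes. Within 0.1 of 0 lay 69 members (82.1%) and 30.1% of all genes.

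**Figure D1:**
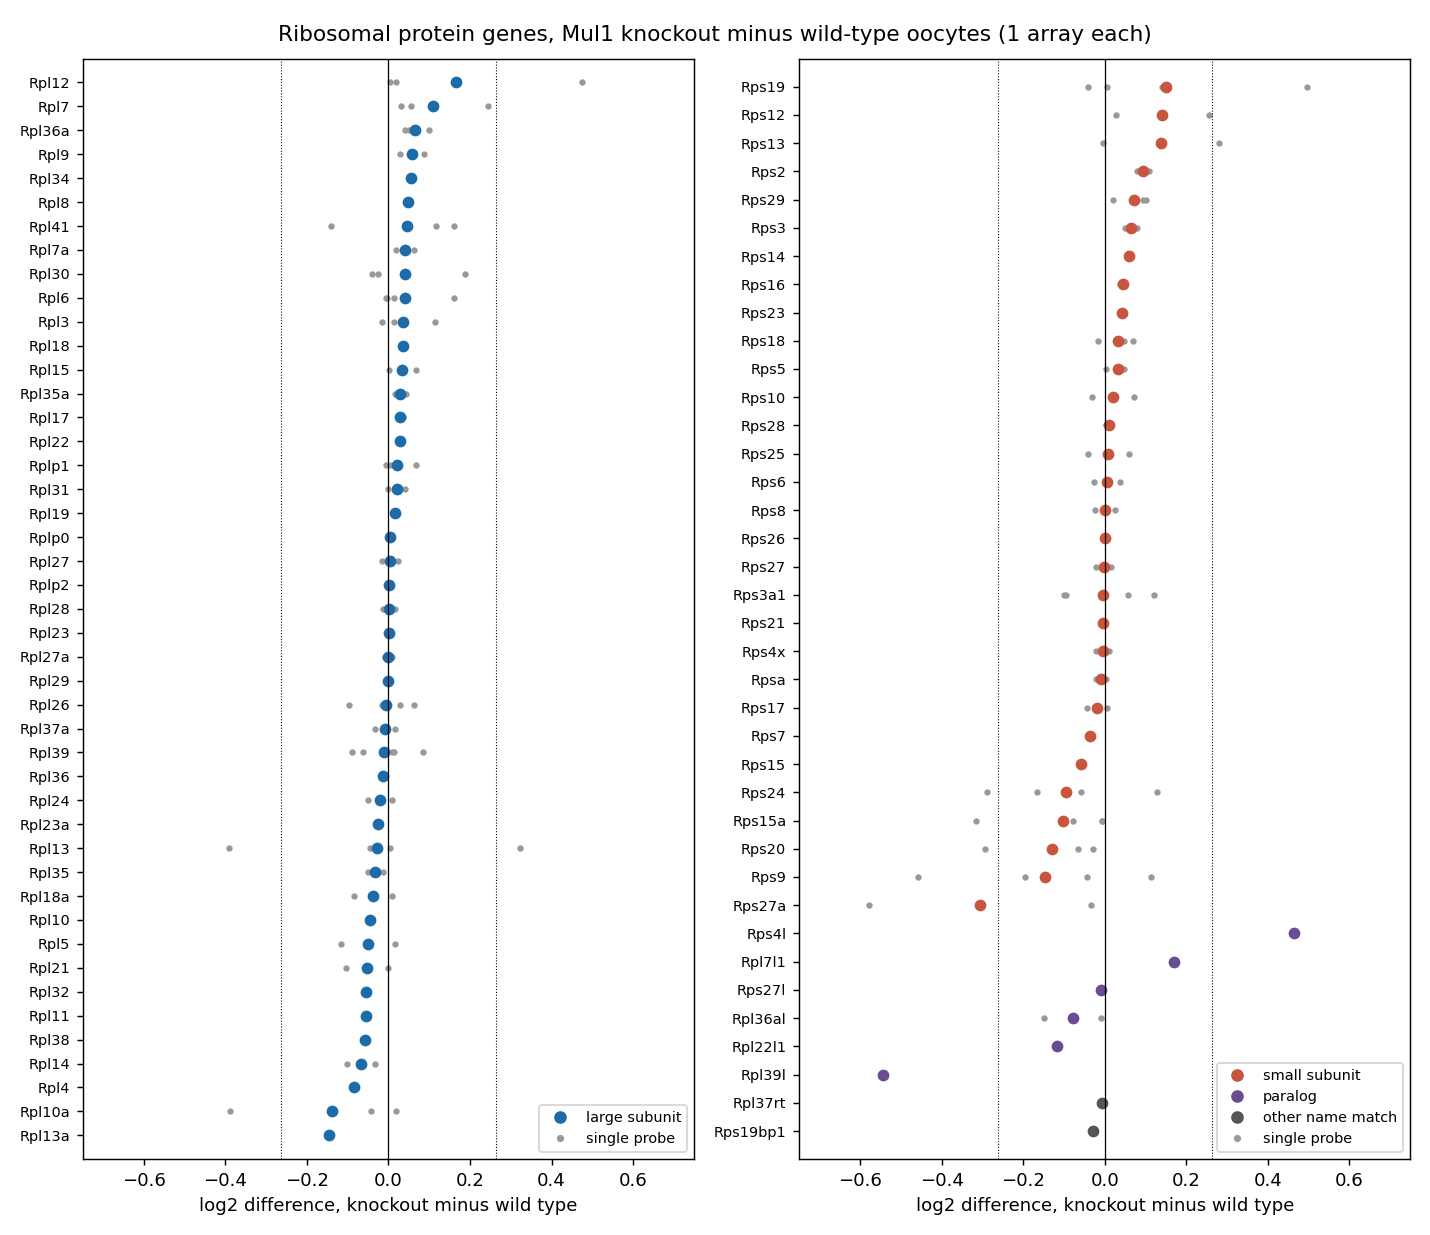
Log2 difference, knockout minus wild type, of the measured ribosomal protein genes (a gene that is not reported by name is left out). Coloured points are genes (blue large subunit, red small subunit, violet paralogs, grey other name matches), small grey points are their single probes, and dotted lines mark 1.2-fold. Most genes sit within 0.1 of 0, and Rps4l, Rps27a and Rpl39l lie past the dotted lines.

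High signal goes with small differences on these arrays, so other bright genes were set beside the members. When all measured genes were ranked by signal, 74 members fell in the brightest 10%. There the members had a median of 0.00 and an SD of 0.06, and 90.5% lay within 0.1 of 0. The other 2218 genes of that class had a median of 0.02 and an SD of 0.24, and 55.6% lay within 0.1. Signal was not matched within the class. The members' median log2 signal relative to the 75th percentile was 6.27, against 4.48 for the other genes. Spots per probe were not matched either, as 65 of the 296 measured probes printed at 10 spots were of members. The 10 members outside the class had an SD of 0.28, and the 3 genes past 1.2-fold were all among them.

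**Figure D2:**
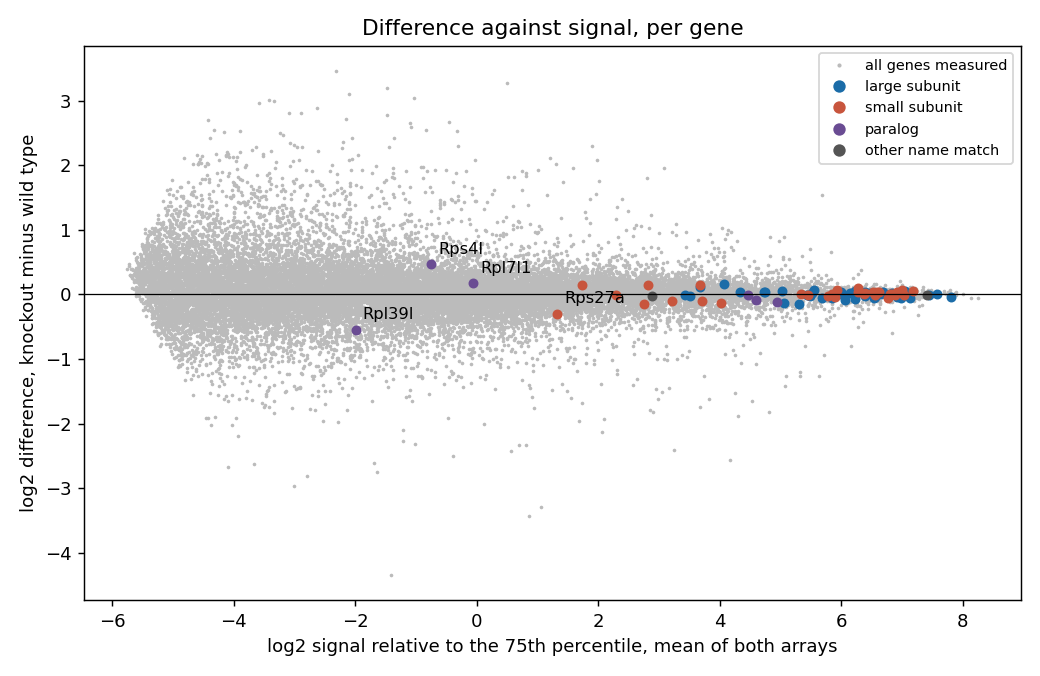
Log2 difference, knockout minus wild type, against log2 signal relative to the 75th percentile (mean of both arrays), with all 22921 genes measured in grey and the ribosomal protein genes in colour. The members lie mostly at the bright end and close to 0, and the dimmer Rps4l and Rpl39l lie farther out.

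The large subunit carries the peptidyl transferase centre, the exit tunnel and the stalk that recruits translation factors. Its 45 measured genes had a median of 0.00, an SD of 0.06 and a range of -0.15 to 0.17, and 41 of them lay within 0.1 of 0. Rplp0, the base of the stalk, read 74372 in knockout and 75870 in wild-type oocytes, a difference of 0.00. Rplp1, an acidic stalk protein, read 90659 in knockout and 91333 in wild-type oocytes (0.02). Rplp2, its partner, read 150654 in knockout and 154008 in wild-type oocytes (0.00). After scaling, the stalk genes were thus nearly equal on both arrays.

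Rpl5 and Rpl11 encode the proteins that join 5S rRNA and that bind MDM2 when ribosome assembly is disturbed. Rpl5 read 39851 in knockout and 42218 in wild-type oocytes, a difference of -0.05, with its brighter probe at 0.02 and the other at -0.12. Rpl11 read 97953 in knockout and 104108 in wild-type oocytes, a difference of -0.06. Both gene values were slightly lower in knockout oocytes, by less than most genes of the array, but the brighter Rpl5 probe was not lower. The 8 genes of the tunnel exit, where nascent chains leave the ribosome, had an SD of 0.02, with 4 above 0 and 4 below.

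At the ends of the large subunit list stood Rpl12 and Rpl13a. Rpl12 lies at the base of the stalk. Its 3 probes read 30583, 102708 and 869 in knockout oocytes, against 31206, 103734 and 639 in wild-type oocytes, and their differences were 0.00, 0.02 and 0.47. The gene mean of 0.17 therefore came from the dim probe. Rpl13a, whose product is also known for silencing translation in interferon-treated human cells when outside the ribosome, had 1 probe, at 29521 in knockout and 33413 in wild-type oocytes, a difference of -0.15. Rpl10a had 3 probes with differences of 0.02, -0.04 and -0.39, and a mean of -0.14. The last of these probes read 977 in knockout and 1307 in wild-type oocytes. The others read 120060 and 131868 in knockout oocytes, against 121281 and 138911 in wild-type oocytes.

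The small subunit binds the mRNA and decodes it. Its 31 genes had a median of 0.01, an SD of 0.09 and a range of -0.31 to 0.15, and 24 lay within 0.1 of 0. The 14 genes of its head had a median of 0.03, with 10 above 0, and the 17 genes of its body a median of -0.00, with 8 above 0. Of all genes, 54.8% lay above 0. Rps6, the substrate of S6 kinase downstream of mTOR, read 45681 in knockout and 46550 in wild-type oocytes, a difference of 0.01. Rpsa, also known as the laminin receptor, read 74032 in knockout and 76163 in wild-type oocytes, a difference of -0.01. Neither gene stood apart between the genotypes.

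Rps27a encodes ubiquitin fused to a ribosomal protein, and its 2 probes disagreed. One read 126333 in knockout and 132249 in wild-type oocytes, a difference of -0.03. The other, listed under another transcript, read 24.7 in knockout and 37.7 in wild-type oocytes, a difference of -0.58, not far from the detection limit (the dimmest probe that passed stood at 15.8 on the knockout array and 12.9 on the wild-type array). The gene mean of -0.31 lies between them. Fau, which encodes a ubiquitin-like protein fused to RPS30 and which the name rule does not take in, differed by -0.02. The bright Rps27a probe, on the minus strand at chr11:29445914-29445973, and the first 30 bases of the dim one, whose 60 bases map to chr11:29447939-29447998 on the same strand (mm9, the build of the array's annotation), are given to show that they target different stretches.
Rps27a bright: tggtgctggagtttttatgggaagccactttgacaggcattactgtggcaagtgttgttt
Rps27a dim: aaagaaaccgagcgaacgagcaaatctggc

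Rps19, the gene most often mutated in Diamond-Blackfan anaemia, had 4 probes with differences of 0.14, 0.01, -0.04 and 0.50. The probe at 0.50 read 32.9 in knockout and 23.9 in wild-type oocytes. The dimmest of the other 3 read 40119 in knockout and 42185 in wild-type oocytes. Over all 15 genes of the list linked to this anaemia the median was 0.00, and 14 lay within 0.1 of 0. Rps9, a small subunit protein at the mRNA entry, also had 4 probes. They read 136064, 54511, 56.8 and 1526 in knockout oocytes, against 128623, 63849, 59.8 and 2143 in wild-type oocytes, with differences of 0.11, -0.20, -0.04 and -0.46. Here the 2 bright probes themselves differed in sign. The brightest, at chr7:3658287-3658346 on the plus strand, and the next, at chr7:3656257-3656316 on the plus strand (mm9), are given because both are RefSeq transcript probes of the same gene.
Rps9 brightest: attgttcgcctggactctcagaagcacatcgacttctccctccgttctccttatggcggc
Rps9 next: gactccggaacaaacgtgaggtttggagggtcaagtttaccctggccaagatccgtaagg

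The remaining small subunit genes at the ends of the list were Rps12 (0.14), Rps13 (0.14) and Rps20 (-0.13). Each had a dim probe far from 0 and bright probes near 0: Rps12 had 0.26 and 0.03, Rps13 had 0.28 and -0.00, and Rps20 had -0.29 on the dim probe and -0.05 over the bright ones. Rpl13 had probes from -0.39 to 0.32, a span of 0.71, the widest of any member, with a gene mean of -0.03. Only 4 genes (Rpl13, Rps9, Rps27a and Rps19) had probes more than 0.5 apart, and 36 of the 60 genes with several probes had all of them within 0.1 of each other.

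The size of a probe's difference went with its signal. The 155 member probes of signal 10000 and over, from 80 genes, had an SD of 0.06, and 0 were at least 1.2-fold apart, against 12.3% of all probes in that band. Between 1000 and 10000, 3 of 8 member probes (37.5%) were 1.2-fold apart, against 22.4% of all probes. Under 1000, 10 of 17 (58.8%) were, against 49.1% of all probes. In 14 genes a dim probe (under 1000) could be set beside bright ones, and in 12 of them the dim probe lay farther from 0. The dim probes lay above 0 in 7 of the 14 genes.

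**Figure D3:**
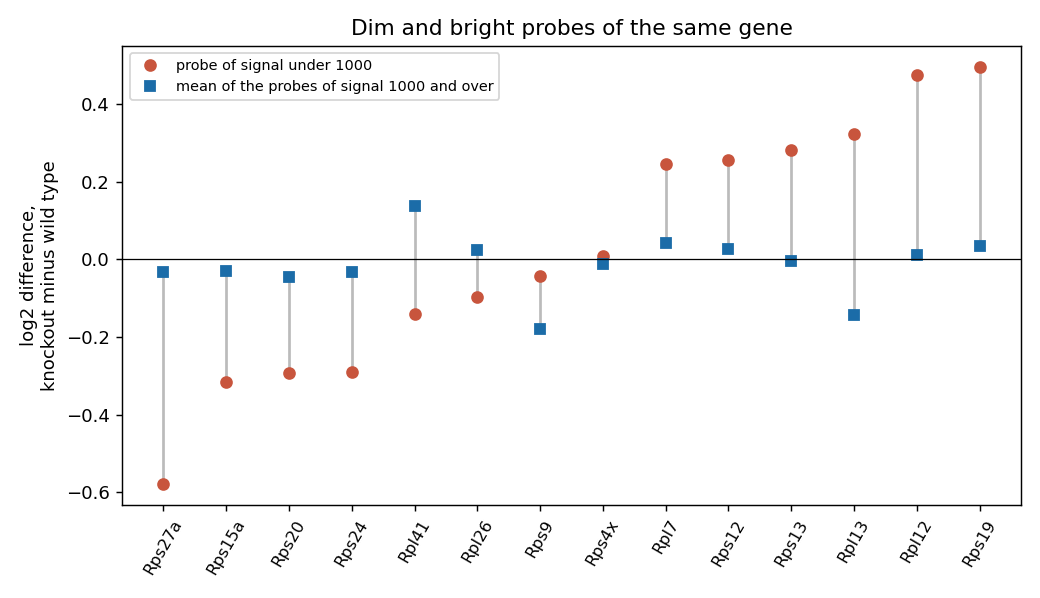
Log2 difference, knockout minus wild type, of the dim probe (red circles, signal under 1000) and of the mean of the bright probes (blue squares) for the 14 genes that have both. Dim probes spread from -0.58 at Rps27a to 0.50 at Rps19, and bright ones from -0.18 at Rps9 to 0.14 at Rpl41.

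With genes averaged only over probes of signal 1000 and over, a setting chosen after seeing these probes, 81 genes remained. Their SD was 0.05, their range -0.18 (Rps9) to 0.14 (Rpl41), and 0 were 1.2-fold apart. Rps27a was then at -0.03.

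Some probes are printed at 10 spots on each array, which gives the technical spread within an array but not the spread between oocyte pools. This held for 65 member probes of 48 genes. Only spots unflagged on both arrays were used, which left fewer than 10 for some probes. The SD between the spots used had a median of 0.04, and the probes' means ran from -0.05 (Rpl24) to 0.16 (Rpl41). Of the 65 means, 45 lay within 1 SD of 0 and 7 lay more than 2 SD from it. In 9 probes all spots used were above 0, among them those of Rplp1, Rps9, Rps2 and Rpl41, which were named after their values were seen. In 0 probes were all spots used below 0. The scanner's own error estimate was wider, with a median of 0.20 on the log2 scale, and 14 of the 180 member probes lay beyond it. The means of the other probes printed at 10 spots ran from -1.66 to 1.73. The same counts over all probes are not given here, so these counts cannot be read as particular to the members.

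**Figure D4:**
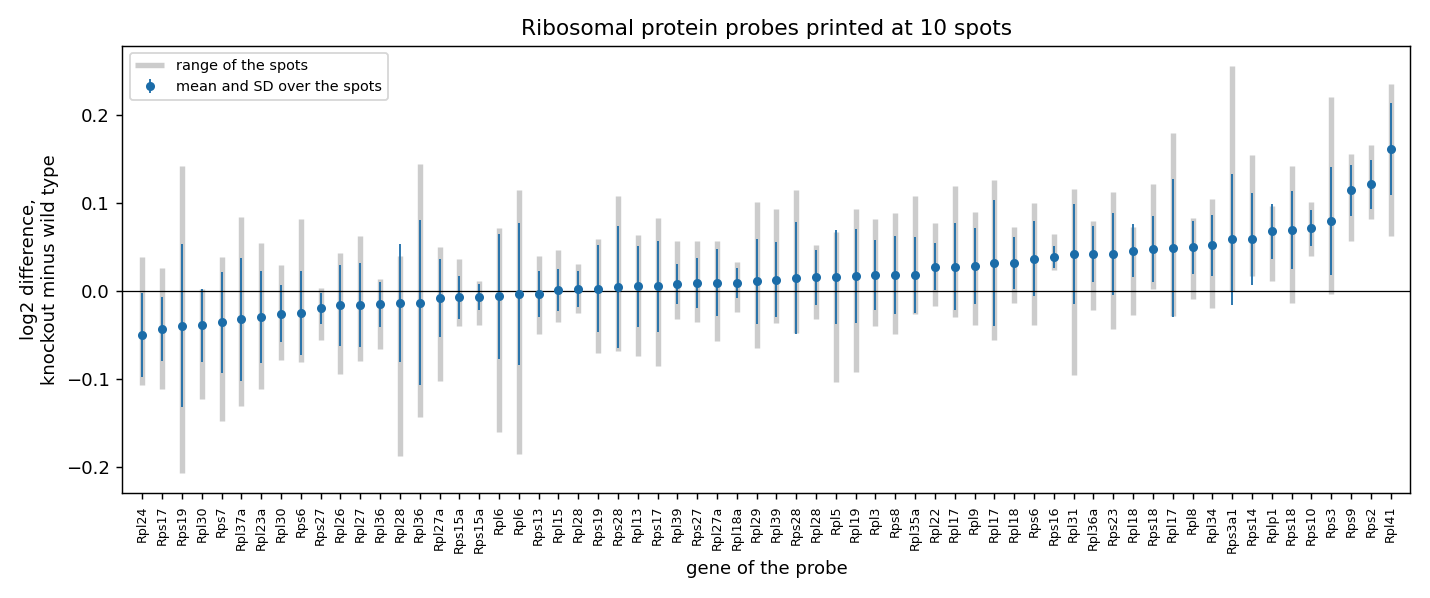
Mean log2 difference, knockout minus wild type, of ribosomal protein probes printed at 10 spots (a gene that is not reported by name is left out), with the SD (blue bars) and the range (grey bars) over the spots. Means run from -0.05 to 0.16, and most SD bars cross 0.

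The paralogs, which replace or accompany a parent protein in some tissues, had an SD of 0.33 over 6 genes. The large and small subunit genes together had an SD of 0.07, but signal was not matched. The median log2 signal relative to the 75th percentile was 2.20 for the paralogs and 6.22 for the subunit genes. All probes of signal under 1000, where Rpl39l, Rps4l and Rpl7l1 lie, had an SD of 0.52. Rpl39l, a paralog known from male germ cells, read 164 in knockout and 245 in wild-type oocytes, a difference of -0.55, the lowest of all members. Its parent Rpl39, a protein of the exit tunnel, read 34075 in knockout and 35092 in wild-type oocytes, a difference of -0.01. Rps4l, whose probe is listed under a non-coding transcript, read 552 in knockout and 409 in wild-type oocytes, a difference of 0.46, the highest of all members. Its parent Rps4x differed by -0.01. Each of these paralogs has only 1 dim probe, and neither reached 1.5-fold.

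The other paralogs were closer to their parents. Rpl22l1 differed by -0.12 and Rpl22 by 0.03. Rpl36al differed by -0.08 and Rpl36a by 0.06. Rpl7l1, which takes part in large subunit assembly, read 800 in knockout and 727 in wild-type oocytes, a difference of 0.17, with its parent Rpl7 at 0.11. Rps27l, a paralog induced by p53, differed by -0.01 and its parent Rps27 by -0.00.

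Rpl39 and Rpl39l probes target different stretches, and within Rpl39 probe signal depended on the probe. Of its 5 probes, 1 read 42855 in knockout and 43454 in wild-type oocytes (0.01). Another, which shares a run of 21 bases with it, read 8712 in knockout and 9485 in wild-type oocytes (-0.09). Both are shown with the shared run in capitals, beside the first 30 bases of the Rpl39l probe, which lies at chr16:10174657-10174716 on the plus strand (mm9).
Rpl39 first: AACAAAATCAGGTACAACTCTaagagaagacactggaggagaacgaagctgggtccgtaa
Rpl39 second: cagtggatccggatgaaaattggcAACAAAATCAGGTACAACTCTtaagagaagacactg
Rpl39l: ctgtgctttagtgagttcattcagcagttc

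The 3 members left out were not well above background on at least 1 array. Rpl37, a large subunit protein, read 14.5 in knockout oocytes, not well above background, and 28.4 in wild-type oocytes. The dim side was set at the higher of the probe's own signal and the lowest signal well above background. On that probe this gives a value 1.76-fold lower in knockout oocytes. It is not a firm bound, as it leaves out the scanner's error of 3.80 in knockout and 4.04 in wild-type oocytes. The probe named Rpl37rt, which also lists the Rpl37 transcript among its targets, read 133181 in knockout and 136824 in wild-type oocytes, a difference of -0.01. Rpl10l, the testis-expressed retrogene of X-linked Rpl10, read 15.4 in knockout oocytes, not well above background, and 15.2 in wild-type oocytes, and gives no fold. Rpl3l, the heart and skeletal muscle paralog of Rpl3, read 3.44 in knockout and 2.81 in wild-type oocytes and was not well above background on either array. Its parent Rpl3 differed by 0.04 and Rpl10 by -0.04.

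Ribosomal protein genes have many processed pseudogenes, and probes can share sequence with them. Of the 186 member probes, 28 (of 23 genes) shared an unbroken run of at least 30 bases with a probe of another gene name. Each of these probes was set against the median difference of the probes of other names that share such a run with it. The median absolute gap was 0.04, and the largest was 0.19, at Rpl13. Probes described as ribosomal protein pseudogenes numbered 84, of which 79 were measured, with a median of 0.01. Signal of a gene and of its near copies cannot be separated on these probes. The screen covered only probes on the array. The array's annotation also placed some member probes on a chromosome other than that of their gene's start or other probes. The Rps27 probes map to chr9, though the gene's annotated start is on chr3. The measured Rps29 probes map to chr2 and the unmeasured probe to chr12. An Rpl13 probe maps to chr4 and an Rpl36 probe to chrX. Member probes outside the 28 may thus also have near copies.

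The members with and without a pyrimidine run at the annotated start had the same median. The 13 genes with the run had a median of 0.00, an SD of 0.04 and a range of -0.10 to 0.03. The 50 measured members without the run at that base had a median of 0.00, an SD of 0.11 and a range of -0.55 (Rpl39l) to 0.17 (Rpl7l1). The 20 other TOP mRNA genes of the list, mostly translation factors, had a median of -0.04. Of them, 6 lay above 0 and 14 below, where 54.8% of all genes lay above 0. The low end held Pabpc1, the cytoplasmic poly(A)-binding protein (-0.44, its probes at -0.84 and -0.03), and Eif3e, a subunit of eIF3 (-0.20). The high end held Eef1g, an elongation factor subunit (0.14), and Gnb2l1, which encodes the 40S-bound scaffold RACK1 (0.10).

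Ribosome assembly genes encode the factors that build the subunits in the nucleolus and nucleus. The 75 measured had a median of -0.19, against 0.03 for all genes, and 7 (9.33%) lay above 0, against 54.8% of all genes. At least 1.2-fold lower in knockout oocytes were 25 of them, against 16.6% of all genes, and 0 were at least 1.2-fold higher, against 21.1%. Under spike-in scaling their median was -0.052 with 43 of 75 below 0, beside a median of 0.14 for the ribosomal protein genes and 0.17 for all genes. Gtpbp4, a GTPase of large subunit assembly, read 380 in knockout and 676 in wild-type oocytes (-0.80). Noc3l, which acts in the same pathway, read 470 in knockout and 774 in wild-type oocytes (-0.69). Mdn1, the assembly ATPase, was at -0.68 over 4 probes from -1.33 to -0.08 and is named after its values were seen, as the third gene at least 1.5-fold lower. The high end held Pno1 (0.13, its probes at -0.11 and 0.36) and Ebna1bp2 (0.10). Against the median of genes of like signal, the assembly genes had a median of -0.20 with 69 of 75 below, and the ribosomal protein genes a median of -0.02 with 51 of 84 below.

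Other lists differed among themselves. Of all genes measured, 54.8% lay above 0. The 36 initiation and elongation factors had a median of -0.13, with 27 below 0. Eif2s2, the beta subunit of eIF2, was at 1715 in knockout and 3519 in wild-type oocytes (-1.004), but its 2 probes were at -1.82 and -0.18. Eef1e1 was at -0.90 with probes at -1.55 and -0.24, and Eif4e1b, an oocyte form of the cap-binding protein, was highest at 0.27, followed by Eif2b4, a subunit of eIF2B, at 0.25. The 14 genes of ribosome rescue and quality control had a median of -0.17, with 13 below 0. Nufip1, a receptor for ribosome turnover, was lowest at -0.62, followed by Hbs1l, a rescue GTPase, at -0.39. Gcn1l1, a sensor of collided ribosomes, was highest at 0.28 with 5 probes from -0.73 to 0.999, and Rnf10, a ligase that modifies small subunit proteins, came next at -0.01. The 17 genes of rRNA transcription had a median of 0.00, with Taf1d at -0.66 and Polr1b at -0.45 at the low end, and Tbp at 0.20 and Polr1c at 0.12 at the high end. The 19 genes of mTOR and TOP mRNA control had a median of -0.06, with Larp4 at -0.80 and Rictor at -0.65 at the low end, and Eif4ebp2, a translational repressor, at 0.11 and Akt1s1 at 0.10 at the high end. The 77 mitochondrial ribosomal protein genes, on the other ribosome of the cell, had a median of 0.03, an SD of 0.16 and a range of -0.48 to 0.56, with 52 above 0.

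**Figure D5:**
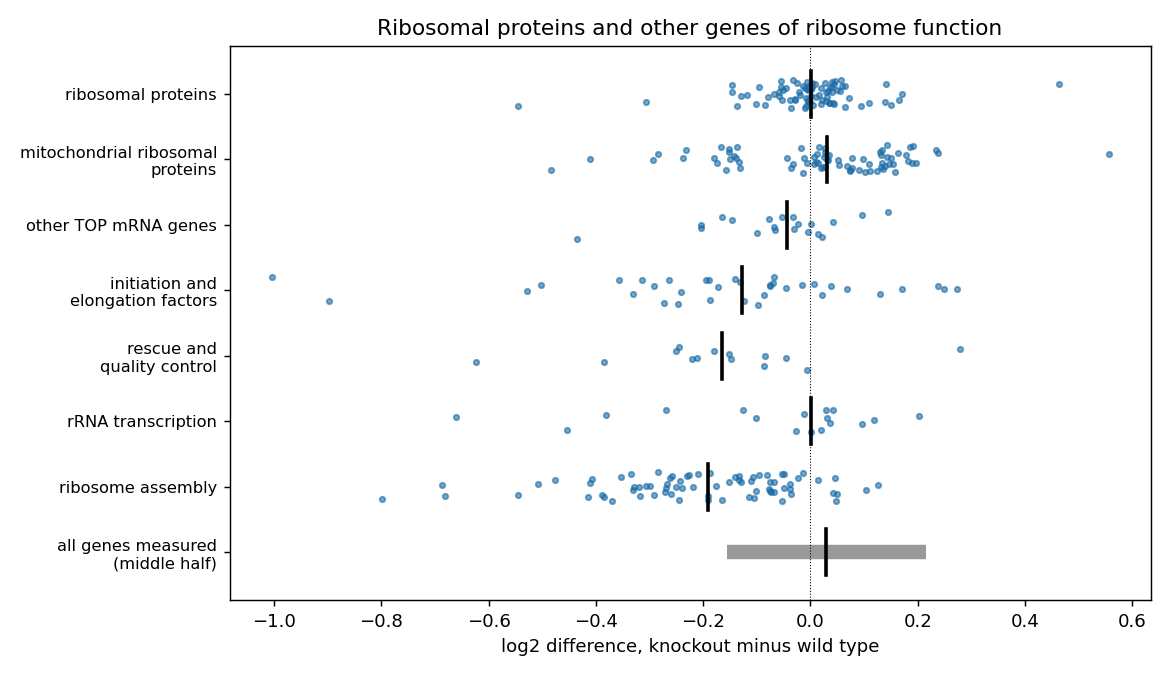
Log2 difference, knockout minus wild type, per gene for the ribosomal proteins and other lists of ribosome function, with medians as black bars and, for all genes measured, the interquartile range as a grey bar. The ribosomal proteins centre on 0.00 and the ribosome assembly genes on -0.19.

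Markers of the oocyte and of other cells differed between the pools and stand beside all values above. The 11 oocyte markers were all well above background on both arrays, and their summed signal relative to the 75th percentile was 163 in knockout and 173 in wild-type oocytes. The single markers went both ways. Nlrp5, a maternal effect gene, was at 0.77, Bmp15, an oocyte growth factor, at 0.53 and the zona pellucida gene Zp3 at 0.41. These 3 of 11 were at least 1.2-fold higher in knockout oocytes, against 21.1% of all genes. At least 1.2-fold lower were 0, against 16.6% of all genes. The low end held Dppa3 (-0.21) and Npm2 (-0.16), both maternal effect genes.

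All 11 cumulus and granulosa markers were measured too, with sums of 221 in knockout and 210 in wild-type oocytes. Here 5 were at least 1.2-fold higher in knockout oocytes, against 21.1% of all genes, and 2 were at least 1.2-fold lower, against 16.6%. Has2, the hyaluronan synthase of the expanding cumulus, read 889 in knockout and 407 in wild-type oocytes (1.16), and Ptx3, a protein of the same matrix, was at 0.95. Star, which carries cholesterol into mitochondria, was at -0.96 and Cyp11a1, which starts steroid synthesis, at -0.40.

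The 15 blood and immune markers summed to 52.7 in knockout and 17.1 in wild-type oocytes. All 15 gene means were higher in knockout oocytes, against 54.8% of all genes. Single probes went both ways for Ptprc (-0.41 to 1.45 over 4 probes) and Itgam (-0.14 and 0.62), and the other markers had every probe higher. The neutrophil genes S100a9 (3.27) and S100a8 (3.05) were highest, and Itgam (0.24) and Csf1r (0.60) lowest. Also at least 2-fold higher were Tyrobp (2.02), Fcer1g (1.95), C1qb (1.82), C1qa (1.82), C1qc (1.75), Cd74 (1.48), Cd68 (1.45), Laptm5 (1.42), Adgre1 (1.32) and Lyz2 (1.23). The red cell markers, 6 of 7 measured, summed to 24.4 in knockout and 74.1 in wild-type oocytes. The globin genes Hba-a2 (-1.66), Hba-a1 (-1.62), Hbb-bt (-1.39) and Hbb-b1 (-1.23) and the haem synthesis gene Alas2 (-1.03) were at least 2-fold lower in knockout oocytes, and Slc4a1 was at -0.10.

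The 6 oviduct epithelium markers summed to 151 in knockout and 95.1 in wild-type oocytes. The difference between these sums lay in Ovgp1, the oviductal glycoprotein, which read 69105 in knockout and 24266 in wild-type oocytes (1.54). Without Ovgp1, a sum added after seeing the data, the other 5 summed to 63.3 in knockout and 65.0 in wild-type oocytes. That sum was mostly the keratin genes Krt8 (0.06) and Krt18 (-0.14), which read 25666 and 24029 in knockout oocytes. The dimmer markers were higher in knockout oocytes. Epcam was at 1.09, on signals of 83.9 in knockout and 40.2 in wild-type oocytes, Pax8 at 0.76 and Foxj1 at 0.59. With Ovgp1, 4 of the 6 markers were at least 1.2-fold higher, against 21.1% of all genes, and 0 were 1.2-fold lower, against 16.6%. No marker list had a median of 0, and the medians ran from -1.31 (red cell) to 1.48 (blood and immune). Since other cells also make ribosomal proteins, these markers' part in the results was not tested. In pooled RNA, fewer cells of a type and less RNA per cell cannot be told apart.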

How the data were processed

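Total RNA of pooled oocytes was purified with a Qiagen RNeasy kit and amplified with Agilent's Low input Quick Amp kit, per the labels' protocols. The deposited files hold spot intensity values from Agilent Feature Extraction, version 10.7.1.1 per the file headers and 9.5.1.1 per the submitters' processing notes; spatial and multiplicative detrending were on, per the file headers. The authors' deposited series-wide log2 values served only as an alternative. Flagged outlier spots were left out (84 on the knockout array, 88 on the wild-type array), spots of a probe were averaged, log2 signal was set relative to the array's 75th percentile, and probes well above background on both arrays were averaged per gene name. Well above background were 64.5% of the 56600 probes on the knockout array and 66.0% on the wild-type array. Only 1 array per genotype limits the precision; no p-value was computed. Genotype and array position cannot be told apart.

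Members and lists were chosen with earlier results of these data known. Named genes were the 6 highest and 6 lowest members, those whose probes span over 0.5 or at least 1.5-fold apart, paralogs with their parents, stalk, 5S, ubiquitin-fusion and undetected genes, Rps6 and Rpsa, and, from the lists that hold no ribosomal proteins and from the marker lists, the 2 highest and 2 lowest genes with those 2-fold apart. Mdn1 and a few markers were named after their values were seen. Alternatives were other scalings, background corrections, filters, probe summaries, flags and names. Python 3.11.15, pandas 2.3.3, statsmodels 0.14.6, R 4.3.3 and limma 3.58.1 were used; steps were tested on simulated data. Probe positions are mm9; start sites come from RefSeq's GRCm38.p6 table. Some genes are not reported here by name; they stay in the counts and medians.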

Additional observations from a re-analysis of the deposited data

How the results depend on the processing

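Scaling on 8 spike-in probes shifted every difference by 0.14 relative to the 75th percentile and moved the median of all genes to 0.17. Relative to that shift nothing moved, but in absolute terms the members' median became 0.14 (mean 0.14), 80 lay above 0, 7 were at least 1.2-fold and 1 (Rps4l, 0.60) at least 1.5-fold apart. The large subunit median became 0.14, the small subunit median 0.14 and the assembly gene median -0.052, with 43 of 75 assembly genes below 0. With no filter on dim probes, 6 members were 1.2-fold and 1 was 1.5-fold apart, and the median of all genes was 0.11. With only probes of signal 1000 and over, added after seeing the data, 0 members were 1.2-fold apart. Over the other 12 alternatives, spike-ins and no filter included, the members' median minus that of all genes ran from -0.11 to -0.01, and that of the assembly genes from -0.28 to -0.18. Rps27a ran from -0.36 to -0.03, with -0.07 under normexp correction and -0.03 on its brightest probe. Rpl39l ran from -0.55 to -0.41 and Rps4l from 0.40 to 0.60. Of 491 values of 38 named members over all alternatives, 80 moved by more than the spread between spots and 36 lay on the other side of 0. The count of members above 0 was 39 under median scaling, 37 under loess and 36 under normexp correction, and 41 to 46 under the rest except spike-in scaling. No paired analysis was possible because each genotype has 1 array. Signal near background limits the dim probes, and leaving out a replicate was not possible.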
